A study of Mus musculus with 6 samples.

Results

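The genes described here are 42 genes of the cell cycle and of DNA replication, taken as a list of named members and read in fetal mouse livers with and without the liver factor HNF4 alpha. A member was measured where the platform annotation gives a probe set its symbol alone. This held for 41 of the 42 (97 probe sets) among 18193 genes measured in all. For Ccnb1 no such probe set was listed and its expression was not analysed here, though its promoter is among the windows read below. Of the 41, 19 act in G1, at the entry into S phase or in replication, and 22 act from S phase through mitosis and cytokinesis. The arrays carried total RNA of whole livers at E18.5, shortly before birth, with 3 arrays in each group. Control livers are labelled HNF4LoxP/+AlfpCre, with 1 loxP-flanked allele, and null livers HNF4LoxP/LoxP AlfpCre, with both alleles flanked, so all 6 livers carry the AlfpCre transgene. AlfpCre drives Cre from albumin and alpha-fetoprotein regulatory elements, which directs recombination to the hepatocyte lineage, while the RNA came from all cells of the organ. Arrays are called by group and title number: the controls are Control_8, Control_1192 and Control_1193, while the nulls are Null_61, Null_1191 and Null_1195.

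The cell cycle runs in a fixed order. Cyclins D and E with their kinases free the E2F factors in G1, origins loaded with the MCM helicase by Cdc6 then fire in S phase, and a later wave of transcripts supplies cyclin B, Cdk1, the Polo and Aurora kinases, the kinetochore and the proteins that pull the chromosomes and then the daughter cells apart. The fetal liver is also the organ of blood formation, and erythroid precursors divide there beside the growing hepatocytes. Both waves are known to be written into promoters: E2F sites mark many replication genes, while a pair of elements, the CCAAT box and the cell cycle homology region (CHR, which lies just upstream of or at the start site), marks many mitotic genes.

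Those elements were looked for in the RefSeq promoter windows of build GRCm38.p6, which reach from 250 bases before to 50 bases after each start and were present for 35 members (39 windows, since some genes have several starts). The search used TTTGAA or TTCGAA for the CHR, CCAAT, and TTTCCCGC, TTTGGCGC, TTTCGCGC or TTTGCCGC for E2F, on both strands, each motif counted on its own even where it overlaps another. Of the 22 windows of mitotic members, 17 (77.3%) held a CHR, 18 (81.8%) a CCAAT and 16 (72.7%) both, where all 32851 windows of the table held them in 19.2%, 37.4% and 7.52%. Of the 17 windows of G1/S and replication members, 3 (17.6%) held a CHR, 12 (70.6%) a CCAAT and 5 (29.4%) an E2F motif, which 1 of the 22 mitotic windows (4.55%) and 2.26% of all windows held. In the 250 bases before the start alone, both CHR and CCAAT stood in 10 of the 22 mitotic windows (45.5%), 3 of the 17 others (17.6%) and 6.02% of all. A match describes the letters and not the binding of a factor. In the last 100 bases before the start, 5 of the 22 mitotic windows held CHR and CCAAT together, 11 a CCAAT without a CHR, 1 a CHR without a CCAAT and 5 neither. Of the 17 others 0 held both, 10 a CCAAT without a CHR, 1 a CHR without a CCAAT and 6 neither. The stretches printed here end at the base before the start and were picked as examples of these arrangements, not as typical of their class; capitals mark the motifs. Of the 5 windows with both, those of Cdc20 (chr4:118437344-118437443, minus strand), Cdk1 (chr10:69352913-69353012, minus strand) and Kif11 (chr19:37376282-37376381, plus strand) are shown. Rrm2 (chr12:24708154-24708253, plus strand) carries a CCAAT alone, as most mitotic windows with a CCAAT do at this length, and Mcm6 (chr1:128359706-128359765, minus strand) an E2F motif and a CCAAT. Birc5 (chr11:117849137-117849236, plus strand), the member with the smallest p in the comparison, held none of these letters in its stretch.
Cdc20: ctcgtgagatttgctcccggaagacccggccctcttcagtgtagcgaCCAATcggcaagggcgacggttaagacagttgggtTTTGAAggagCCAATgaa
Cdk1: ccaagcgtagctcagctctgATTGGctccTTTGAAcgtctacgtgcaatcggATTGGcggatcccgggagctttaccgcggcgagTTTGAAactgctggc
Kif11: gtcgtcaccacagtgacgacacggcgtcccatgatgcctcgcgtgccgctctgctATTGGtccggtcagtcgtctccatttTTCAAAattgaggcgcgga
Rrm2: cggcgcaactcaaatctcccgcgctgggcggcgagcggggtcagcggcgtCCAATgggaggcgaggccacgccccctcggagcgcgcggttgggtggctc
Mcm6: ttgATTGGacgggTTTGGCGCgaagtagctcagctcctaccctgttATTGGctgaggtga
Birc5: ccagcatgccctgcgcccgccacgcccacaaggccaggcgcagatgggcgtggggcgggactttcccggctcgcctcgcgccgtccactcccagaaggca

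Each array gives 1 intensity per probe set on a linear scale, with array medians of 91.8 to 99.5. A gene is read from its brightest singly named probe set, a value with ± is a mean and SD over 3 arrays, and a log2 change is null minus control after adding 32. A gene was called at a limma adjusted p under 0.05, with Benjamini-Hochberg adjustment over all 45037 probe sets tested. Hnf4a itself was lower but present, with log2 changes of -0.48 to -0.69 in its 4 probe sets, of which 2 were called. Its brightest probe set stood at 2607, 2817 and 2877 in control livers and at 1778, 1562 and 2778 in null livers, with Null_1195 inside the control range, and whether its probe sets lie in the deleted stretch was not given in the sources used here. Control_8 and Null_61 carry title numbers apart from the closely numbered other 4 arrays, and their 5' 18S RNA control probe set read 42.1 and 33.5 against 449 to 616 elsewhere. The labels name no batch. Splitting these 2 arrays from the other 4 rests on title numbers alone and is called title run or number run here. Null_1195 had the highest 3' to 5' ratio of the Gapdh control, 1.28, against 0.934 to 1.06 in the other arrays. By Xist and Y-linked probe sets Control_8, Null_1191 and Null_1195 are female and the others male.

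Cell cycle transcripts sat slightly higher in the null livers. Of the 41 measured members, 5 rose and 0 fell: Birc5, Ect2, Cdc20, Rrm2 and Ccne2, by 1.40-fold to 1.66-fold. That is 12.2% of the members, where 1.56% of all genes rose and 7.85% fell. No member was lower at an unadjusted p under 0.05 either (15.2% of all genes were), and 18 members (43.9%) were higher at that level, against 9.10% of all genes. The log2 change was above 0 in 39 members (95.1%), where the share over all genes was 51.1%, and its median was 0.26 against 0.01. In 19 members (46.3%) all 3 nulls lay above all 3 controls and in 0 below them, against 13.2% and 17.9% of all genes. Over the 97 probe sets, 6 were called higher and 0 lower, where 1.46% and 5.55% of all probe sets were.

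The number of calls moved with the settings. After quantile normalization 16 members rose, among them all 5, with the falling share of all called genes at 66.0% in place of 83.5%; the 1750 genes at least as bright as the median member had a median log2 change of -0.07 as deposited and 0.14 after that step. Leaving out 1 array left 1 call without Control_8, Control_1193 or Null_1191 (Birc5 each time), 3 without Control_1192 or Null_1195, and 6 without Null_61. With embryo sex as a term or without an intensity trend 2 remained, Birc5 and Ect2.

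**Figure D1:**
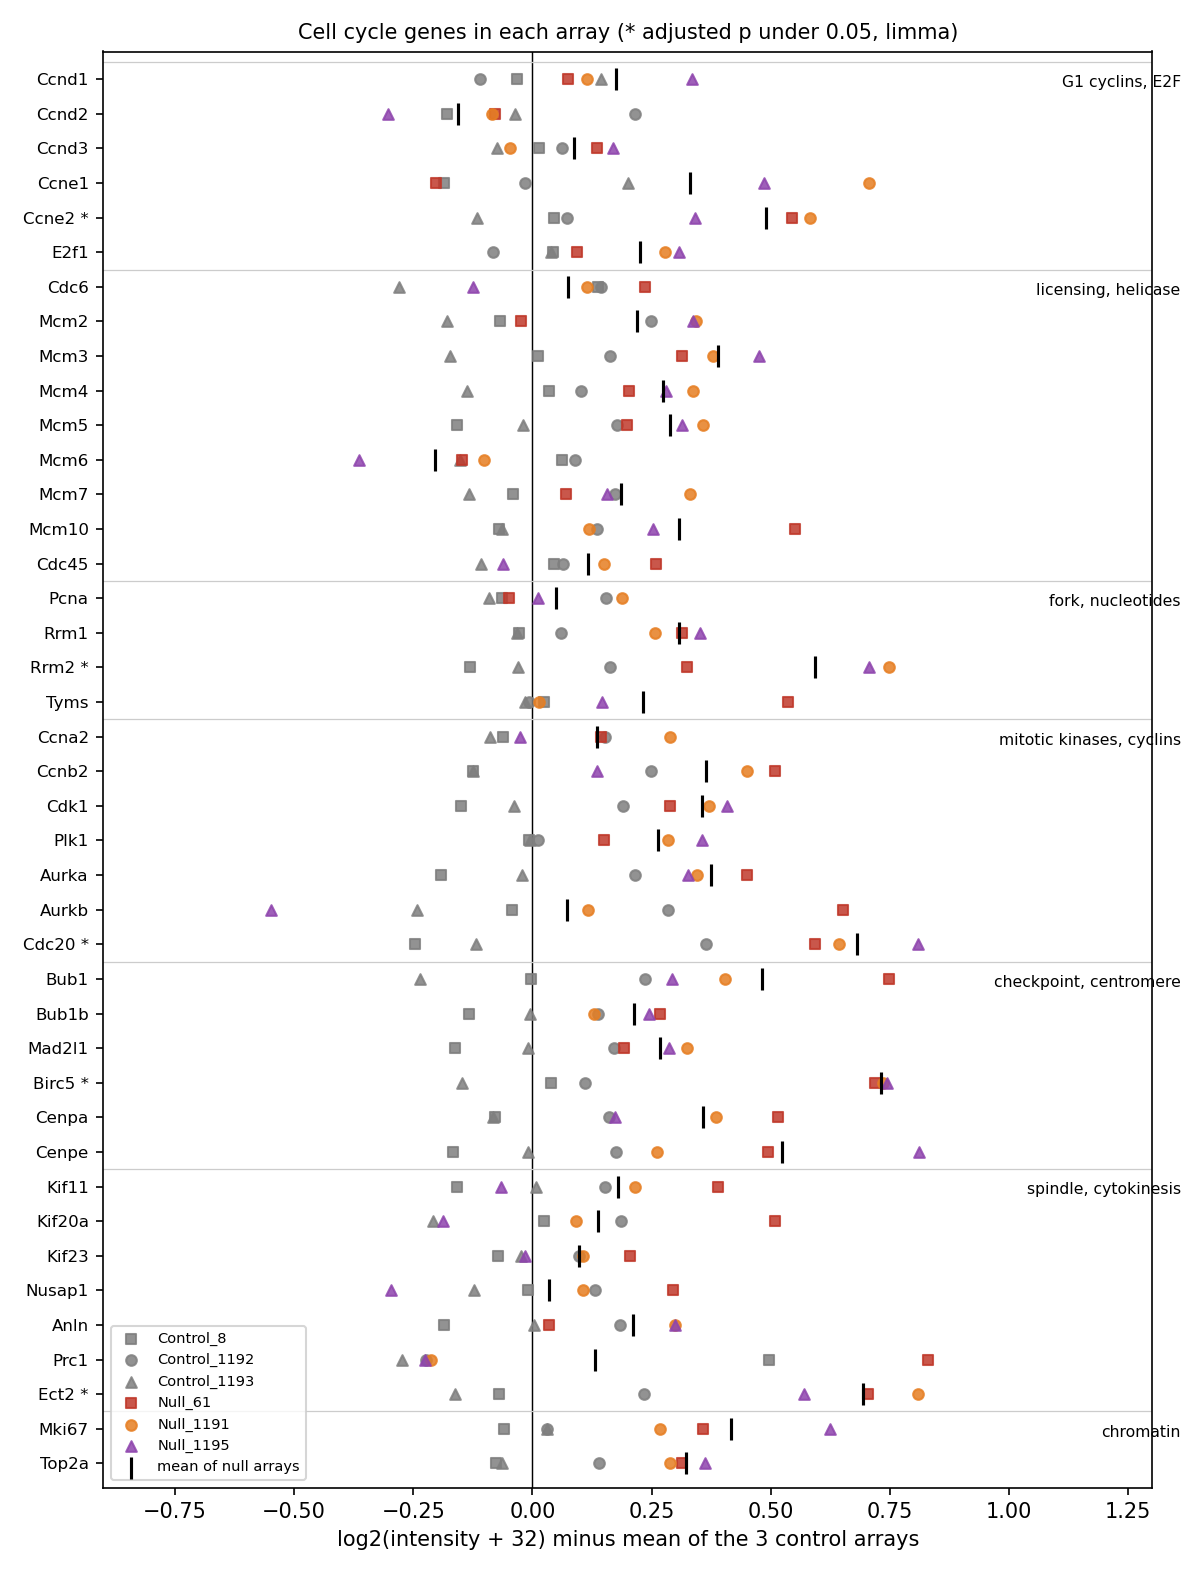
Each row is 1 of the 41 measured members by role and each symbol 1 array, placed at its log2(intensity + 32) minus the mean of the 3 control arrays; the bar is the mean of the 3 nulls and a star marks an adjusted p under 0.05. The null means lie right of 0 in 39 rows, and Ccnd2 and Mcm6 are the exceptions.

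Among the G1/S and replication members 2 of 19 rose, 0 fell, and the median log2 change was 0.23. The D cyclins, which pair with Cdk4 and Cdk6 to open G1, were near the control level. Ccnd1 stood at 237, 223 and 272 in control livers and at 258, 266 and 315 in null livers, and Ccnd3 1958, 2025 and 1840 against 2135, 1876 and 2185. For both the groups overlapped, and the 95% intervals of the log2 change ran from -0.12 to 0.47 and from -0.15 to 0.32. Ccnd2 was 1 of the 2 members with a change below 0, at -0.16 with an interval of -0.47 to 0.16.

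The E cyclins, which drive Cdk2 at the start of S phase, lay higher. Ccne2 stood at 391, 399 and 346 in control livers and at 566, 582 and 487 in null livers, with every null above every control. The log2 change came to 0.49, standard error 0.12 (adjusted p = 0.0466), a call close to the threshold that was lost with array medians centred (adjusted p = 0.0669) and in 5 of the 6 fits without 1 array. Ccne1 read 417, 473 and 555 against 412, 801 and 683: Null_1191 and Null_1195 stood above the controls and Null_61 did not (log2 change 0.33, standard error 0.22, adjusted p = 0.443). Without Null_61 its change was 0.60 with an adjusted p of 0.0352. E2f1, the transcription factor that switches on many replication genes, had a change of 0.23 with nulls of 494, 566 and 578 above controls of 476, 434 and 475, and was not called (adjusted p = 0.304). Its other probe sets were at 0.50 and 0.44, and the mean of its probe sets gave 0.39 and a call (adjusted p = 0.0428).

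Of the 9 genes of origin licensing and the replicative helicase, 0 were called, and the median log2 change was 0.22. At an unadjusted p under 0.05, 3 were higher, where 9.1% of all genes were. Mcm3, Mcm4 and Mcm5, subunits of the ring helicase, had the smallest p values. Mcm3 stood at 758, 846 and 663 in control livers and at 942, 988 and 1058 in null livers (log2 change 0.39, adjusted p = 0.103). Mcm4 read 991, 1040 and 876 against 1117, 1229 and 1181, and Mcm5 1273, 1615 and 1403 against 1639, 1832 and 1776, with changes of 0.27 and 0.29. In each of the 3 the groups were separate, though in Mcm5 Control_1192 came close to the lowest null. The ring's other subunits did not separate: Mcm2 and Mcm7 had changes of 0.22 and 0.19, while Mcm6 lay lower, with controls of 2227, 2271 and 1915 and nulls of 1920, 1984 and 1650 (log2 change -0.20, interval -0.47 to 0.06, and 0.03 after quantile normalization). The loading factor Cdc6, the helicase cofactor Cdc45 and the initiation factor Mcm10 had changes of 0.07, 0.12 and 0.31, all with overlapping groups.

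Both subunits of ribonucleotide reductase, which makes deoxynucleotides, lay above their controls. Rrm2, the subunit whose level follows S phase, stood at 2546, 3128 and 2733 in control livers and at 3502, 4709 and 4573 in null livers, a 1.51-fold rise (log2 change 0.59, standard error 0.14, adjusted p = 0.0336). Every null exceeded every control, and Null_61 was the lowest of the nulls. Rrm1 read 1186, 1262 and 1183 against 1511, 1453 and 1552, with separate groups and a change of 0.31 that was not called (adjusted p = 0.102). Pcna, the sliding clamp of the polymerases, had overlapping groups at 4469 ± 430 in controls and 4626 ± 404 in nulls, with an interval of -0.19 to 0.29. Tyms, which makes thymidylate, was dim in its representative probe set (46.8 to 49 in controls, 48.5 to 83.6 in nulls), below the median of the arrays, so its level is poorly measured.

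**Figure D2:**
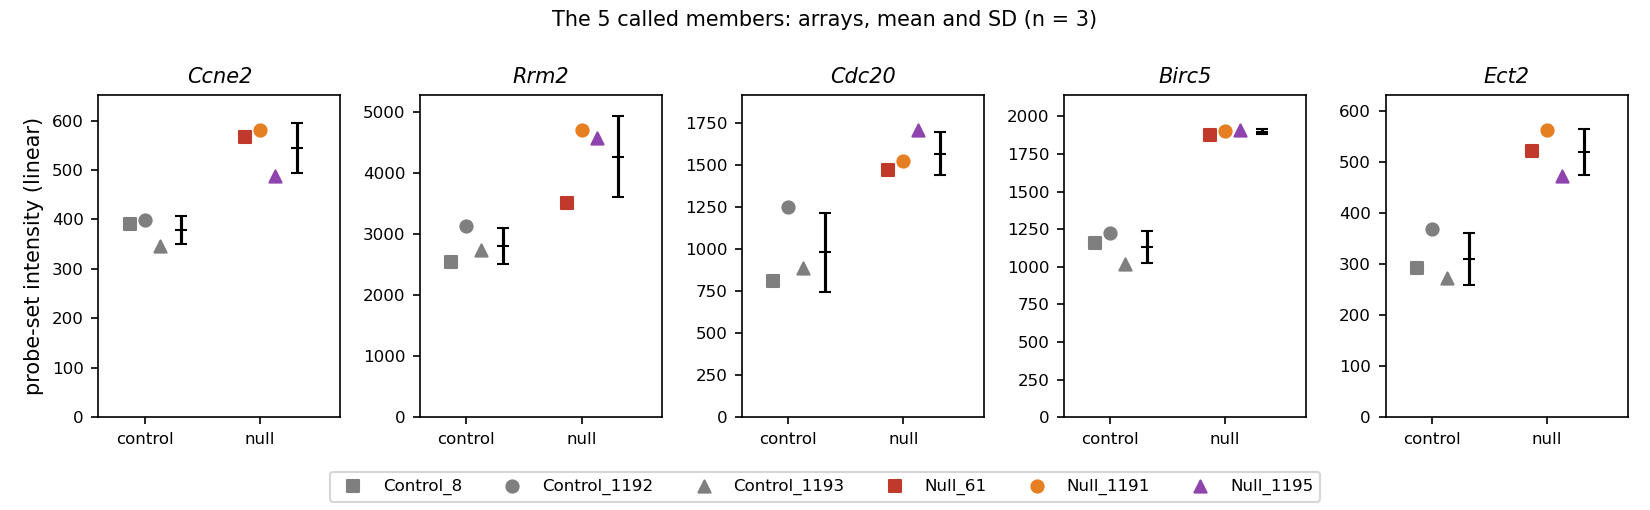
Linear probe-set intensity in each array for the 5 called members, with the mean and SD of each group of 3; every axis starts at 0. In each panel the 3 null arrays lie above the 3 controls, most tightly in Birc5, where the nulls read 1879, 1901 and 1913.

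Among the members of G2 and mitosis 3 of 22 (13.6%) rose and 0 fell, against 1.56% and 7.85% of all genes. All 22 had a log2 change above 0, where 51.1% of all genes did, and the median was 0.29. Cdc20, which activates the anaphase-promoting complex, led the 7 kinases, cyclins and activators. It had control intensities of 809, 1252 and 886 and null intensities of 1471, 1525 and 1714, a 1.60-fold rise (log2 change 0.68, standard error 0.16, adjusted p = 0.0407). Control_1192 lay closest to the nulls. Cdk1, the kinase of mitotic entry, read 941, 1200 and 1019 against 1287, 1365 and 1401, with separate groups and a change of 0.36 (adjusted p = 0.122). Aurka, the centrosomal Aurora kinase, read 431, 582 and 489 against 691, 640 and 631, and Plk1, the Polo kinase, 585, 593 and 586 against 656, 723 and 761, both separate and neither called. Aurka has a second, dim probe set, and the mean of its probe sets gave a change of -0.04. Ccnb2 and Ccna2, the cyclins partnering Cdk1, had changes of 0.36 and 0.14 with overlapping groups. The other probe set of Ccna2 read 863, 1766 and 1434 in control livers and 1743, 1919 and 2357 in null livers. Its change was 0.60, with overlapping groups and no call (adjusted p = 0.188). Aurkb, the kinase of the chromosomal passenger complex, was the most scattered of the 7, with nulls of 423, 282 and 166 around controls of 249, 321 and 213, and its change was -0.22 without Null_61.

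The checkpoint and centromere genes had the largest median of the roles, 0.42 over 6 members. Of these 1 was called higher and 5 had separate groups with the nulls above. Over all genes these shares were 1.56% and 13.2%. Birc5, or survivin, a subunit of the passenger complex with Aurkb, rose 1.66-fold, from 1133 ± 106 in controls to 1898 ± 17.4 in nulls, with an adjusted p of 0.00305 (log2 change 0.73 ± 0.10, standard error). Its controls read 1161, 1222 and 1016 and its nulls 1879, 1901 and 1913, so the nulls lay far apart from the controls and close to each other. It was the only member called in every fit without 1 array (adjusted p from 0.00414 to 0.0205). Cenpe, the kinetochore motor, read 159, 210 and 181 against 270, 225 and 344 (log2 change 0.52, adjusted p = 0.106), and Bub1, a checkpoint kinase, 223, 269 and 185 against 397, 306 and 281 (0.48, adjusted p = 0.139). Null_61 was highest in Bub1 and Null_1195 in Cenpe. Cenpa, the centromeric histone, and Mad2l1, an inhibitor of Cdc20, had changes of 0.36 and 0.27 with separate groups. Bub1b had 0.21, and its lowest null, 527, lay just under Control_1192 at 530. Another bright probe set of Bub1b had 0.49 with separate groups (adjusted p = 0.0938), and a dim one had -0.21.

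Of 7 genes of the spindle and of cytokinesis 1 rose, where 1.56% of all genes did, and the others were not called. Ect2, the exchange factor that switches on RhoA at the cleavage furrow, stood at 292, 368 and 272 in control livers and at 522, 564 and 473 in null livers, a 1.62-fold rise (log2 change 0.69, standard error 0.14, adjusted p = 0.0186). No other member of the role had separate groups, and Kif11, Kif20a and Nusap1 were at -0.01, -0.04 and -0.10 in the 4 arrays without Control_8 and Null_61. Kif11, the motor that spreads the spindle poles, and Kif20a and Kif23, motors of the central spindle, had changes of 0.18, 0.14 and 0.10. Anln, which bundles actin in the contractile ring, had 0.21, and Nusap1, a microtubule binder, 0.04 with an interval of -0.33 to 0.40. Prc1, which bundles the midzone, was bright in Control_8 (1186) and Null_61 (1501) and ranged from 682 to 713 elsewhere, so in this probe set the arrays divided by title number and not by group. Its other probe set stood at 591, 688 and 586 in control livers and at 913, 771 and 804 in null livers, with separate groups and a change of 0.40 (adjusted p = 0.0920).

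Mki67, the antigen Ki-67 of cycling cells, and Top2a, the topoisomerase that untangles sister chromatids, were both higher without being called. Mki67 read 2712, 2890 and 2889 against 3636, 3412 and 4379, with an adjusted p of 0.0610 (log2 change 0.42 ± 0.11, standard error). Top2a read 1481, 1725 and 1494 against 1951, 1915 and 2017, a change of 0.32 (adjusted p = 0.108). In both the groups were separate, and Null_1195 was the highest array. Mki67 was called with a block for title run (adjusted p = 0.0290), with array weights (0.0458) and with the mean of probe sets (0.0482). Mki67 has 1 probe set, so the mean leaves its intensities as they were and only the fit differs. It was also called above the median level (0.0411), after quantile normalization (0.00503) and without Null_61 (0.0483). Mki67 was not called with array medians centred (adjusted p = 0.0533), or with a pseudocount of 1 (0.0804) or 100 (0.0555). Nor was it called without an intensity trend (0.121), with embryo sex as a term (0.137) or in the 4 closely numbered arrays (0.103). Leaving out any single array other than Null_61 gave adjusted p values of 0.0769 to 0.202.

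The mitotic members stood a little above the G1/S and replication members, a difference that was not tested and that was small in the 4 arrays without Null_61 and Control_8. With the control mean as zero level, mitotic members had a median of 0.42 in Null_61 and of 0.29 in each of Null_1191 and Null_1195. For the G1/S and replication members these medians were 0.20, 0.26 and 0.28 in the same order. Within the 4 closely numbered arrays the medians were 0.23 and 0.22, and in Null_61 minus Control_8 they were 0.46 and 0.12. These 2 comparisons share no array. In 34 of the 41 members (82.9%) both had a change above 0, in 1 both were below 0 (Mcm6), and the share with both above 0 was 34.3% over all genes. Across the 41 members the correlation between them was 0.37, and across all genes it was 0.78; both are given as descriptions, since the genes share their arrays. In the 4 arrays alone the called members were Birc5, Ect2 and Rrm2. There both nulls are female and both controls male, so group and embryo sex cannot be told apart. Null_61 is male and Control_8 female, so the same holds for their difference, with the sexes reversed. Without _x and _s probe sets, which can match several transcripts, the G1/S median was 0.12 and the mitotic median 0.31, with Mcm3 and Mcm5 at -0.07 each and Mcm7 at -0.12.

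**Figure D3:**
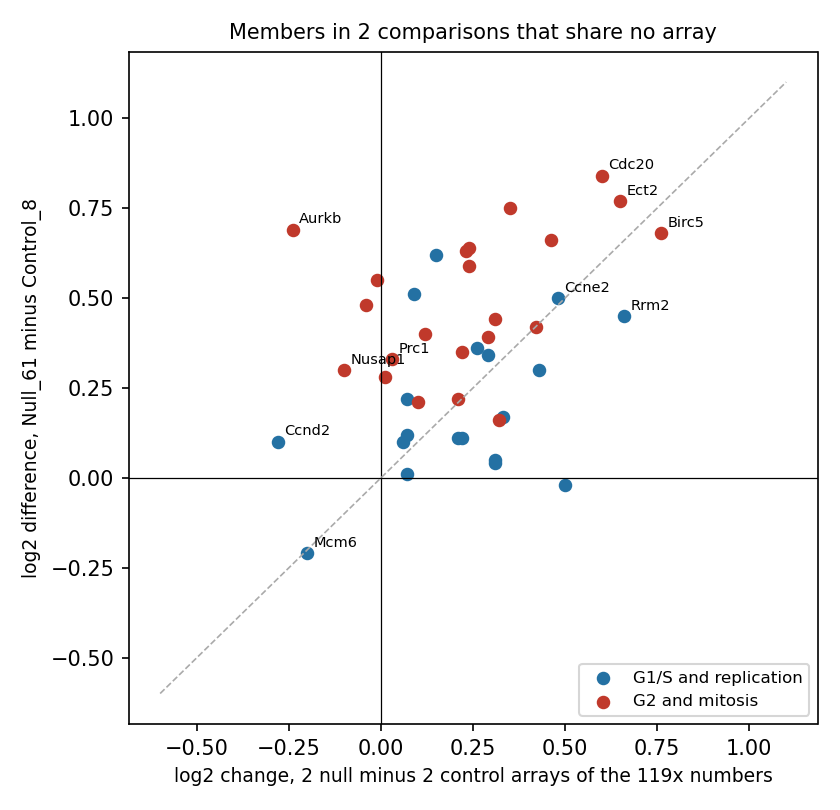
Each point is a member, with its log2 change in the 4 closely numbered arrays on the horizontal axis and Null_61 minus Control_8 on the vertical axis; the dashed line marks equal values. Of the 41 points 34 lie above 0 on both axes, and Mcm6 is the only one below 0 on both.

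Differences between roles were not tested, and their medians are given side by side. For the spindle genes Null_61 had a median of 0.39, Null_1191 of 0.11 and Null_1195 of -0.07, and only 2 of 7 were above the control mean in Null_1195. By run it was 0.33 in Null_61 minus Control_8 and 0.01 in the 4 other arrays. Kinases, cyclins and activators had 0.63 and 0.24. Checkpoint and centromere genes had 0.63 and 0.30, with all 6 above 0 in both. The G1 cyclins and E2f1 had 0.10 and 0.26.

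Probe sets of the same gene did not always move together, most of all in Null_1195. Among 22 members with several probe sets whose mean over all arrays was above 99.5, the highest array median, 8 had both signs, namely Ccnd2, Mcm2, Mcm3, Mcm5, Mcm6, Mcm7, Mcm10 and Rrm1 (in Mcm2 the lower of them rounds to 0.00). The median spread between a gene's probe sets was 0.59 in Null_1195, against 0.30 in Null_61 and 0.33 in Null_1191. A probe set each of Cenpe and E2f1 passed that limit through the nulls alone and 1 of Ccnd2 through the controls alone; without these 3 the spreads over 21 members were 0.59, 0.27 and 0.27, and Cenpe was left out. Rrm1 is an example. Its other bright probe set stood at 907, 999 and 709 in control livers and at 1084, 796 and 474 in null livers, and Null_1195 was 0.82 below the control mean there and 0.35 above it in the representative. In Rrm2 the 3 probe sets gave changes of 0.59, 0.46 and 0.15, and in Cdc20 0.68, 0.31 and 0.22, so those 2 calls belong to 1 probe set each, in both genes one whose _x name says that it can match several transcripts. Mcm4 had the reverse: its second probe set was called (0.55, adjusted p = 0.0308) and its representative was not; the mean of its probe sets was called too (0.41, adjusted p = 0.0454). The part of the 3' to 5' ratio of Null_1195 in this spread was not tested.

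**Figure D4:**
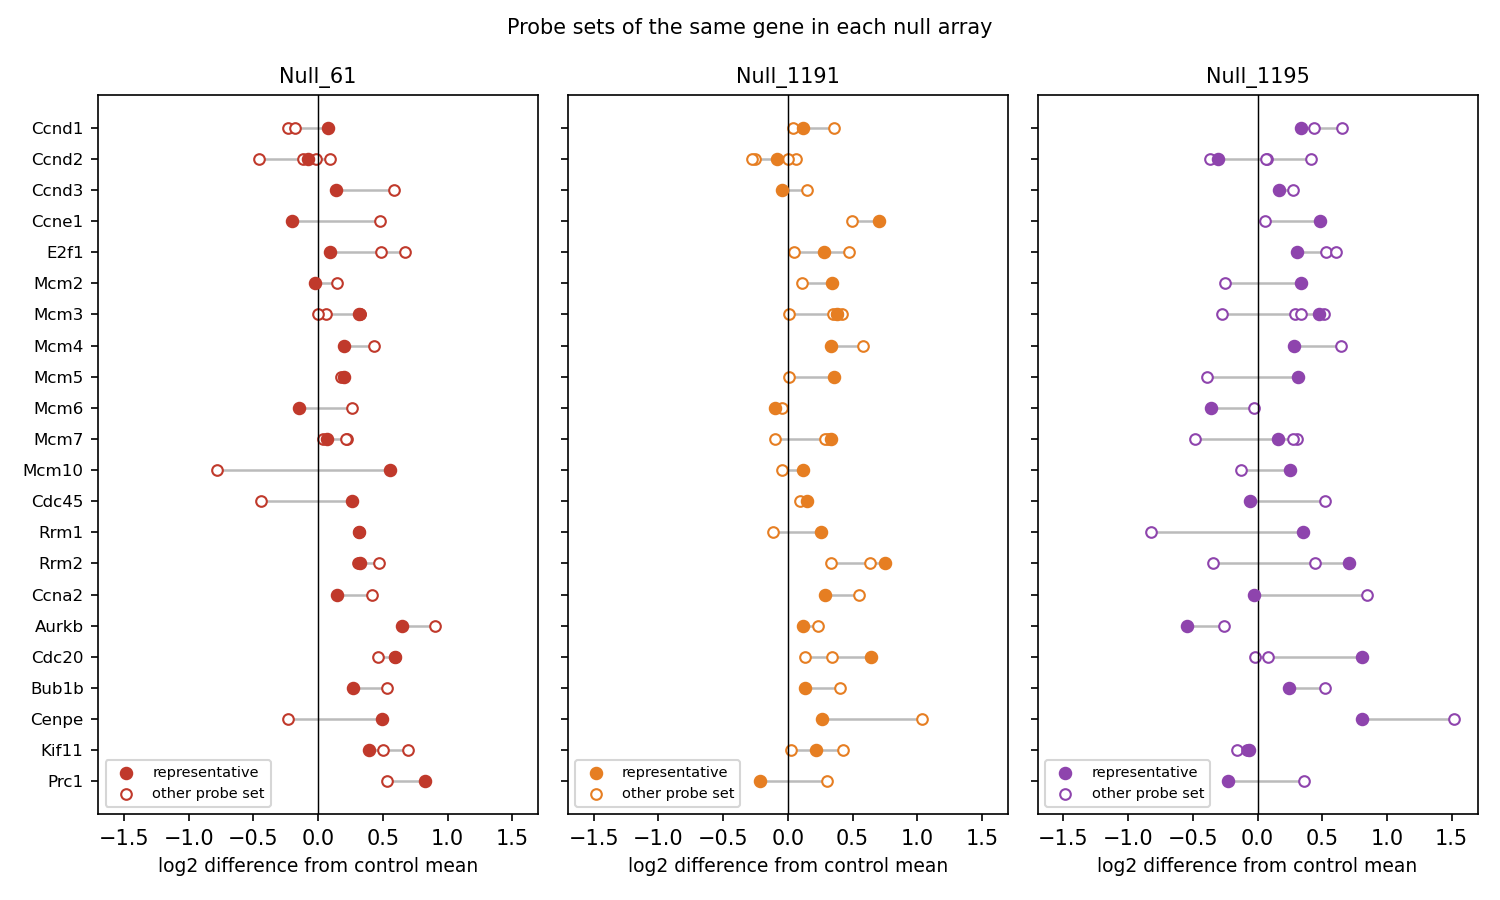
For 22 members with several bright probe sets, each panel gives 1 null array and each circle a probe set (filled: the representative), at its log2 difference from the control mean; grey lines join probe sets of a gene. The median length of the lines is largest in Null_1195, at 0.59, and the longest single line in Null_61 is that of Mcm10.

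Other genes of the same machinery were read from lists of the pathway, where 1.56% of all genes rose and 7.85% fell. Of 37 further replication genes 2 rose and 0 fell, with 29 above 0 and a median of 0.16. Dbf4, the activator of the origin-firing kinase Cdc7, rose from 330 ± 32.3 to 506 ± 39.9, and Uhrf1, which maintains DNA methylation at the fork, from 528 ± 42.0 to 795 ± 126. Of 41 further mitotic genes 2 rose and 0 fell, with 36 above 0 and a median of 0.31: Incenp, the scaffold of the passenger complex that Birc5 belongs to, rose from 487 ± 85.6 to 861 ± 103, and Smc4, a condensin subunit, from 1186 ± 69.3 to 1638 ± 42.5. A list of 19 genes held E2F factors and their partners, pocket proteins, G1 kinases, Cdc25a, Skp2, Myc and Mycn. Of these 1 rose and 1 fell, and the median was 0.02. Rb1, the retinoblastoma protein that restrains E2F, rose from 798 ± 80.5 to 1113 ± 49.3, and Mycn, a growth-promoting transcription factor, fell from 216 ± 22.7 to 137 ± 8.96.

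Markers of the cells in the organ moved too, and in bulk RNA more or fewer cells of a type cannot be told apart from more or less RNA per cell. Over all genes 1.56% rose and 7.85% fell. At an unadjusted p under 0.05 these shares were 9.1% and 15.2%. Hepatocyte genes fell in 10 of 14, with summed intensities of 100043 to 105122 in the controls and 57759 to 66200 in the nulls. Asgr1, a hepatocyte receptor, was near or below 0 in all nulls. Alb, Afp, Hnf4a and Tdo2 were not called in their representative probe sets, and Alb and Afp had log2 changes of 0.02 and -0.06. Alb (10165 to 11079) and Afp (11302 to 11995) read close to the highest intensities of the arrays (12298 to 12608). A change in either transcript may therefore be understated. Erythroid genes were called in 0 of 14, with 4 higher and 0 lower at an unadjusted p under 0.05 and a median of 0.18. Their sum was 28089 to 30693 in the controls and 33171 to 33888 in the nulls, without overlap. Macrophage genes rose in 3 of 11, with a median of 0.55 and sums of 5130 to 6065 and 7189 to 11692. Mesenchymal genes were called in 0 of 9, with 3 higher at an unadjusted p under 0.05 and sums of 3371 to 4441 and 4299 to 7032; their median was 0.79 in Null_61 and at most 0.19 in the other nulls. Megakaryocyte genes fell in 4 of 6 (sums of 5290 to 7303 and 3688 to 4254) and endothelial genes in 3 of 8 (2020 to 2289 and 1446 to 1723). Granulocyte precursor, B cell precursor and cholangiocyte genes had 0 calls in 11, 7 and 4, with medians of -0.16, -0.06 and -0.06. At an unadjusted p under 0.05 these 3 lists had 0, 1 and 0 genes higher and 0, 0 and 1 lower, and their sums overlapped between groups (33134 to 37464 and 29755 to 37882, 853 to 952 and 752 to 1197, 640 to 722 and 619 to 775). In the lists other than the hepatocyte one no measured marker was at or below 0 in any array. The part of these cell types in the cell cycle values was not tested.

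**Figure D5:**
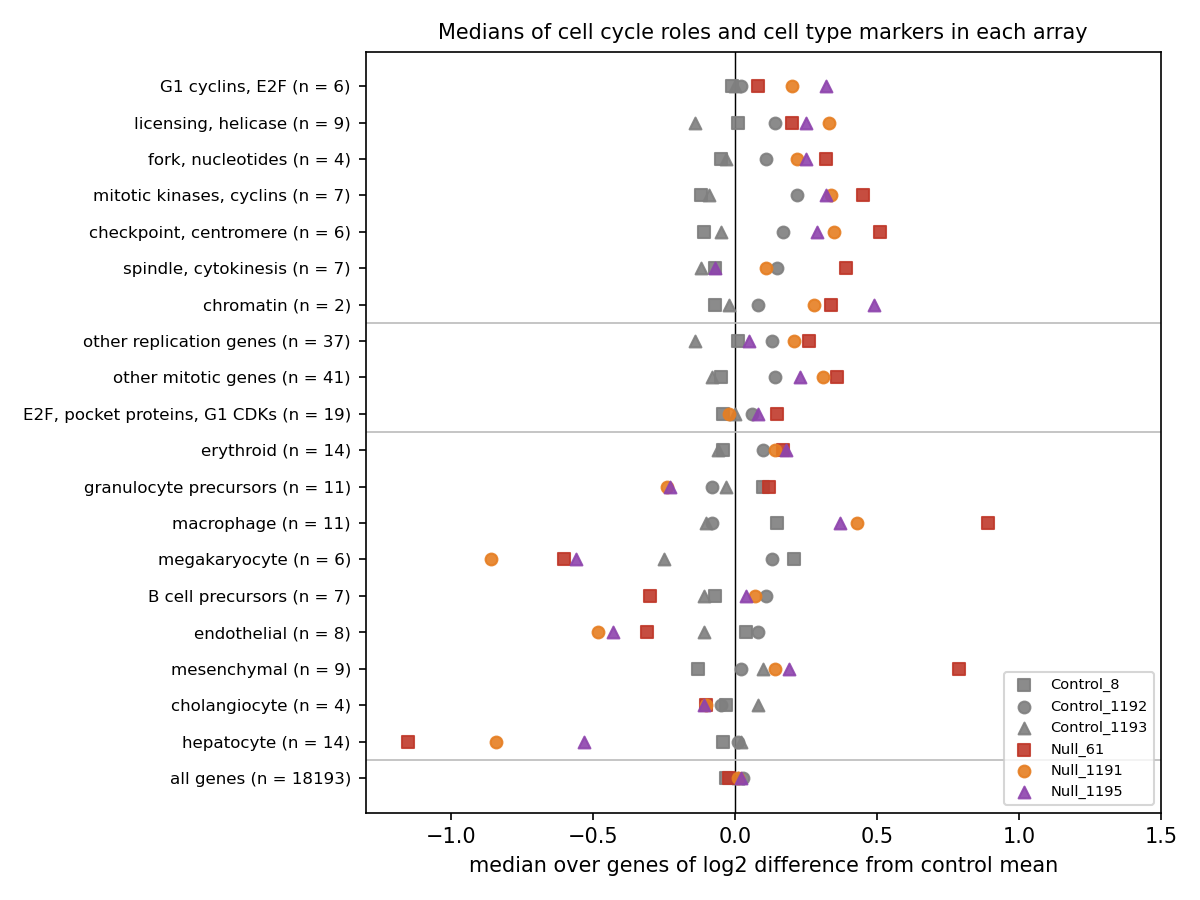
Each row is a group of genes and each symbol an array, at the median over the group's genes of the log2 difference from the control mean; the top 7 rows are the members by role. All genes together lie between -0.03 and 0.03, and hepatocyte genes at -1.15 to -0.53 in the nulls. Among the member rows the mitotic and chromatin ones lie at 0.28 to 0.51 in the nulls, except the spindle row. The row of other mitotic genes lies at 0.23 to 0.36 in the nulls.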

How the data were processed

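Total RNA was purified on Qiagen RNeasy columns, biotin-labelled and hybridised to Affymetrix 3' arrays, per the labels' protocols. The authors deposited 1 summarised intensity per probe set and array on a linear scale; its summarisation, scaling and software were not given in the sources used here. Array number limits the precision, and the labels do not say whether embryos shared a litter, and the p-values reflect array-to-array spread, which may be technical. Of 45101 probe sets 64 controls were left out. Negative values were raised to 0 and log2(value + 32) was used, with no further normalization. All 45037 probe sets were fitted with limma 3.58.1 in R 4.3.3 (lmFit, eBayes with an intensity trend), null against control, two-sided, with Benjamini-Hochberg adjustment. A gene was read from its brightest probe set with 1 symbol (34945 probe sets; 932 had several symbols and 9160 none). Members are described by role. Values in each array are given for the 6 members of each class with the smallest p and for some others. Members whose probe sets differ in direction are named. Members and lists were chosen with earlier results of these data known. The fit was tested on simulated data. Alternatives covered normalization, pseudocount, filter, trend, array weights, probe-set choice, number run, embryo sex and leaving out each array.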

Additional observations from a re-analysis of the deposited data

How the results depend on the processing

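No member was called lower under any alternative, and the 5 called members kept their direction in each alternative that measured them. From 5 calls and medians of 0.23 (G1/S and replication) and 0.29 (mitosis), quantile normalization gave 16 calls and medians of 0.40 and 0.51, and moved the median of all genes from 0.01 to 0.06. Without the intensity trend there were 2 calls, within the 4 closely numbered arrays 3, and with embryo sex as a term 2 with a G1/S median of 0.18. Leaving out 1 array gave 1 to 6 calls, G1/S medians of 0.20 to 0.27 and mitotic medians of 0.28 to 0.37. Alternatives chosen after seeing the data read genes without _x and _s probe sets (3 calls of 40 members, G1/S median 0.12) or without _x, _s and _a ones (1 call of 34, G1/S median 0.12). The 1 call in the latter was Ccne2. Birc5 and Ect2 have only an _a probe set and were not measured there. Calls numbered 4 to 6 under the other settings, and the cause of these shifts was not tested. With the mean of a gene's probe sets the called members were Birc5, Ccne2, E2f1, Ect2, Mcm4 and Mki67. Cdc20 and Rrm2 were not called in that setting. Over all genes, 283 rose as reported, 617 after quantile normalization, 613 with array weights, 747 with the title run blocked, 170 with embryo sex and 98 to 558 without 1 array; 1428 fell as reported and 906 to 1689 without 1 array. Some members that were not called changed sign. Mcm6 was at 0.03 after quantile normalization, Aurkb at -0.03 and Prc1 at 0 with array weights, and Aurka at -0.04 as the mean of its probe sets. In the 4 closely numbered arrays Aurkb was at -0.24, Kif11 at -0.01, Kif20a at -0.04 and Nusap1 at -0.10. Without _x and _s probe sets, with or without the _a ones, Mcm2 was at 0 and Mcm3 and Mcm5 at -0.07. Mcm7 was at -0.12 without _x and _s, and Mcm10 at -0.32 without all 3 kinds. Leaving out 1 array moved Cdc6 from -0.07 to 0.17, Pcna from -0.02 to 0.13, Aurkb from -0.22 to 0.38, Kif20a from -0.05 to 0.30, Nusap1 from -0.10 to 0.20 and Prc1 from -0.22 to 0.38. No paired analysis was possible because the groups share no title numbers; the block for title run sets arrays side by side by run, not as pairs, and called 6 members. With 3 arrays a group, an exact permutation test of a single value cannot go below 0.1, and Tyms is too dim for its level to be read closely.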

Other observations

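Among genes outside the member list, chosen here after their values were seen, Foxm1, a transcription factor of mitotic genes, stood at 144, 124 and 130 in control livers and at 181, 189 and 181 in null livers, with separate groups and a limma adjusted p of 0.0811. Mybl2, another such factor, lay the other way, at 234, 254 and 206 in control livers and 234, 180 and 179 in null livers. Its log2 change was -0.20 with overlapping groups (limma adjusted p = 0.455). Several cell cycle genes divided by title number and not by group. E2f2, an E2F factor, was low in Control_8 (657) and Null_61 (807) and ranged from 1460 to 2139 elsewhere. Pttg1, or securin, read 1795 and 1939 against 2698 to 4191, and Fbxo5, an inhibitor of the anaphase-promoting complex, 675 and 824 against 1149 to 1636. In each of these 3 genes both comparisons within a number run were above 0.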
